A study of Mus musculus with 5 samples.

Results

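Hoxa9 peaks that had neither a C/EBPα peak nor either histone mark on them were described in mouse hematopoietic progenitor cells transformed by Hoxa9 and Meis1. They were chosen by overlap of called peaks: a Hoxa9 peak was kept if it shared 0 bp with every C/EBPα peak, every H3K4me1 region and every H3K27me3 region. This left 883 of 6578 Hoxa9 peaks, or 13.4% (95% exact interval 12.6 to 14.3), which are called unmarked Hoxa9 peaks here. They made up 31.1% of the 2836 Hoxa9 peaks without a C/EBPα peak and 76.5% of the 1155 Hoxa9 peaks outside H3K4me1. They covered 0.437 Mb and held 19641 of the 285488 tags in the Hoxa9 list, or 6.88%. "Unmarked" means that nothing was called on the peak, and does not show that C/EBPα or a mark was absent.

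All libraries came from C57B6 mouse bone marrow depleted of lineage-positive cells. The retroviruses MIGR1-HA-Hoxa9 and, with it, MIGR1-Flag-Meis1 were brought into these cells, which grew with IL3, so every library shares both transgenes and no untransduced cells were compared. Chromatin immunoprecipitation and sequencing gave 1 library each for Hoxa9 (through its HA tag), C/EBPα, H3K4me1 and H3K27me3, and a peak list from each was used. The HA antibody sees the introduced Hoxa9, not the cell's own protein. The labels used here do not give the age of the mice or the number of animals and clones. The lists name no genes, so the labelled cell type was not checked against marker genes. No result has a replicate, and the unmarked peaks were picked from the same lists, so the values below are descriptions and no difference was tested. Intervals are exact, at 95%, and cover counting error only.

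Hoxa9 is a homeodomain transcription factor that binds DNA together with cofactors of the Pbx and Meis families and keeps early blood progenitors dividing. C/EBPα, of the leucine zipper class, drives myeloid differentiation and often shares enhancers with other blood factors. H3K4me1 is laid down on enhancers and around promoters, while H3K27me3 is the mark of Polycomb repression.

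The unmarked peaks were mostly weak and narrow. They held a median of 18 tags (interval of the median 18 to 19), against 29 in the 1924 Hoxa9-only peaks in H3K4me1 and 39 in the 3742 Hoxa9 peaks with C/EBPα. The lowest tag count in the whole list was 17, and 337 of the 883 unmarked peaks stood exactly there. That is 38.2% (34.9 to 41.5), against 10.6% of Hoxa9-only peaks in H3K4me1 and 12% of all Hoxa9 peaks. Counts of 20 tags or fewer were found in 68.4% of the unmarked peaks and in 24.8% of the Hoxa9-only peaks in H3K4me1. The median width was 446 bp in unmarked peaks, with quartiles at 429 and 510 bp, against 629 bp in the Hoxa9-only peaks in H3K4me1 and 726 bp in peaks with C/EBPα.

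Fold enrichment, the caller's ratio of tags to their expected level, was also lower. Its median was 5.15 in unmarked peaks, with quartiles at 4.56 and 5.83, against 6 in Hoxa9-only peaks in H3K4me1 and 6.83 in peaks with C/EBPα. A fold enrichment of 10 or more was reached by 12 unmarked peaks, 1.36% (0.704 to 2.36), where it was reached by 16.7% of all Hoxa9 peaks. A p score of 100 or more, which is −log10 of the p-value given by the caller multiplied by 10, was reached by 96 unmarked peaks, or 10.9%, against 51.3% of all Hoxa9 peaks. Counts of 40 or more tags were found in 50 unmarked peaks, 5.66%, against 37.3% of all Hoxa9 peaks. The caller's false discovery rate was 0 for 22.0% of unmarked peaks and for 61.5% of the Hoxa9-only peaks in H3K4me1.

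The 243 Hoxa9 peaks outside H3K4me1 that did have C/EBPα lay between these classes. Their median was 25 tags, their median width 557 bp and their median fold enrichment 5.58, and 9.05% of them reached a fold enrichment of 10. The lowest medians were thus in the peaks that lacked both C/EBPα and H3K4me1.

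**Figure D1:**
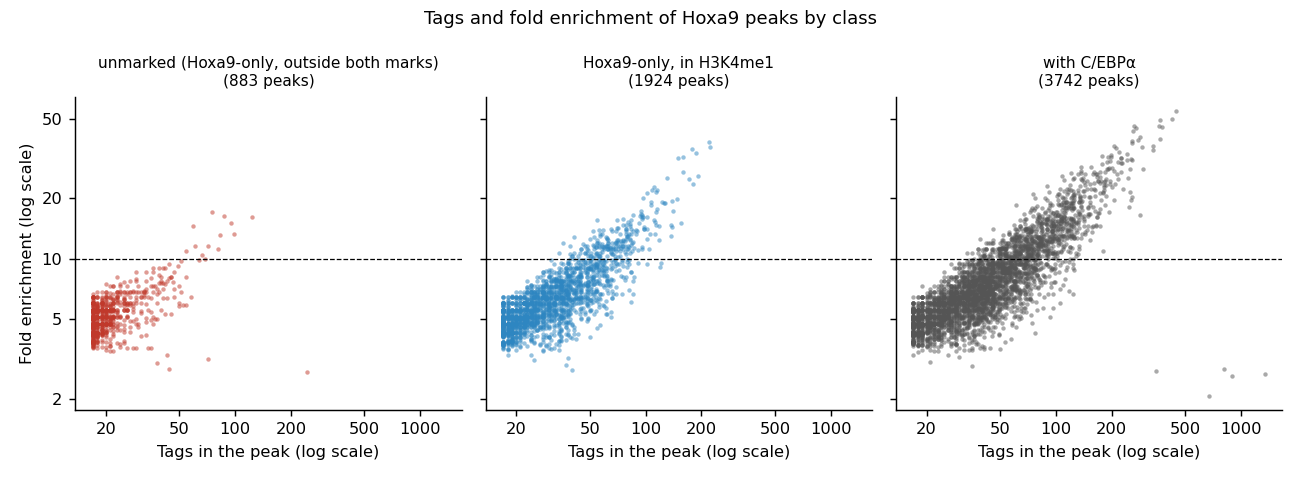
Tags in each Hoxa9 peak (x, log scale) against its fold enrichment (y, log scale) for unmarked peaks, Hoxa9-only peaks in H3K4me1 and peaks with C/EBPα. Each point is 1 peak and the dashed line marks a fold enrichment of 10, which 12 of the 883 unmarked peaks reached.

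With the Hoxa9 list divided into 5 equal groups by p score, unmarked peaks were frequent among weak peaks and rare among strong ones. They made up 32.5% of score group 1, the weakest, followed by 22.6%, 7.45%, 3.57% and 0.988% in group 5, the strongest. Group 1 held 427 of them and group 5 held 13. Hoxa9-only peaks in H3K4me1 changed less across the groups, with 30.0%, 34.0%, 33.1%, 29.7% and 19.5%. Of unmarked peaks and Hoxa9-only peaks in H3K4me1 together, unmarked ones came to 51.9% in group 1 and 4.83% in group 5. Of all unmarked peaks, 48.4% were in group 1 and 33.7% in group 2. The 29 Hoxa9-only peaks in H3K27me3 and outside H3K4me1 also lay mostly in the weak groups. They came to 1.44%, 0.684%, 0%, 0.076% and 0% of groups 1 to 5.

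**Figure D2:**
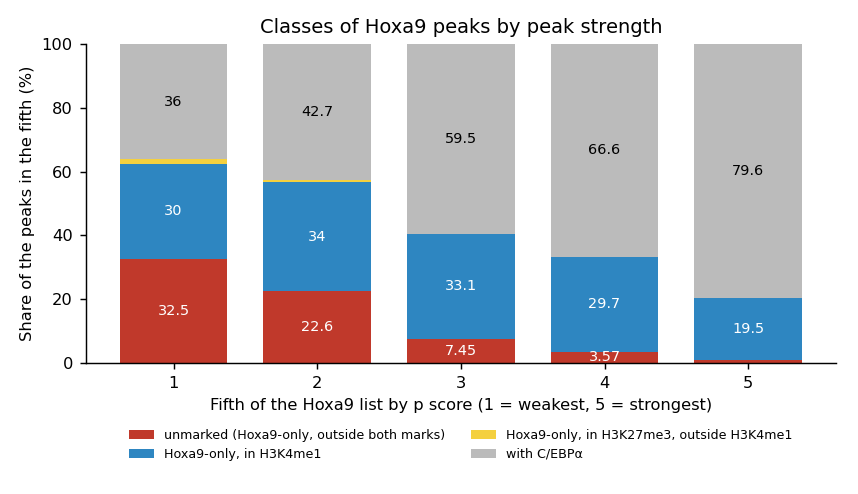
Share of Hoxa9 peaks in each class (y, percent) in 5 equal groups by p score (x, weakest to strongest). The unmarked peaks, at the foot of each bar, came to 32.5% of group 1 and 0.988% of group 5.

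A few unmarked peaks were strong Hoxa9 sites by tags, fold enrichment and score alike. The strongest was on chromosome 4 from 101183062 to 101184298 (mm9, as are all positions here), with 124 tags, a fold enrichment of 16.25 and a p score of 812.6. It lay 1028 bp from the nearest H3K4me1 region, and 12 H3K4me1 and 2 C/EBPα summits lay within 20 kb of it, the nearer C/EBPα summit 1533 bp away. This peak was thus unmarked but had many calls close by.

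Other strong unmarked peaks stood farther out. A peak on chromosome 1 from 159215132 to 159216222 had 99 tags and a fold enrichment of 13.30, with 1 H3K4me1 region and 1 C/EBPα summit within 20 kb, at 11787 and 13543 bp. A peak on chromosome 9 from 82854716 to 82855802 had 95 tags and a fold enrichment of 15.01, and its nearest H3K4me1 region, 14352 bp away, was 427 bp wide and held 14 tags. Both had no other Hoxa9 summit within 20 kb.

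The peak on chromosome 16 from 95699938 to 95700829, with 87 tags and a fold enrichment of 16.26, had a Hoxa9 neighbour that did carry C/EBPα, 13970 bp away. That neighbour held 42 tags, fewer than the unmarked peak, and the C/EBPα peak nearest to the unmarked one held 294 tags. A peak on chromosome 5 from 65811904 to 65812973 held 83 tags at a fold enrichment of 13.19, with H3K4me1 at 6613 bp and C/EBPα at 13378 bp.

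On chromosome 10, a peak from 20067491 to 20068541 with 81 tags and a fold enrichment of 11.18 filled the space between 2 H3K4me1 regions. They began 143 bp to its left and 166 bp to its right. A C/EBPα summit lay 782 bp from its summit, so both features touched its surroundings without sharing a base with it. On chromosome 6, a peak from 22084753 to 22085621 held 71 tags at a fold enrichment of 11.58. It had a C/EBPα summit at 2621 bp, while H3K4me1 came no nearer than 11555 bp.

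The highest fold enrichment, 17.16, belonged to a peak on chromosome X from 165668593 to 165669456 with 75 tags. Of the 12 unmarked peaks that reached a fold enrichment of 10, it lay farthest from H3K4me1. The nearest H3K4me1 region lay 87545 bp away, the nearest C/EBPα summit 160016 bp and the nearest other Hoxa9 summit 135427 bp, and that neighbour was itself unmarked and held 26 tags. A peak on chromosome 4 from 52460787 to 52461550, with 59 tags and a fold enrichment of 14.58, had H3K4me1 at 7092 bp but its nearest C/EBPα summit at 468575 bp and the nearest other Hoxa9 summit at 552124 bp.

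Over the 12 unmarked peaks with a fold enrichment of 10 or more, tags ran from 54 to 124 and widths from 764 to 1237 bp. H3K4me1 lay within 5 kb of 3 of them and within 20 kb of 11, and a C/EBPα summit lay within 5 kb of 4 and within 20 kb of 10. Within 50 kb the counts were also 11 and 10. Over all unmarked peaks, H3K4me1 lay within 5 kb of 34.4% and within 50 kb of 70%. A C/EBPα summit lay within 5 kb of 14% and within 50 kb of 60.9%. Over all Hoxa9 peaks, these shares were 89.5% and 95.4% for H3K4me1, and 69.5% and 91.6% for C/EBPα. Another Hoxa9 summit lay within 20 kb of 1. Over all 883 unmarked peaks, it lay within 10 kb of 8.15% and within 25 kb of 17.7%. The median distances of the 12 were 7320 bp to H3K4me1 and 13460 bp to a C/EBPα summit. Whether these 12 peaks differ from the rest in their neighbourhood was not tested.

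**Figure D3:**
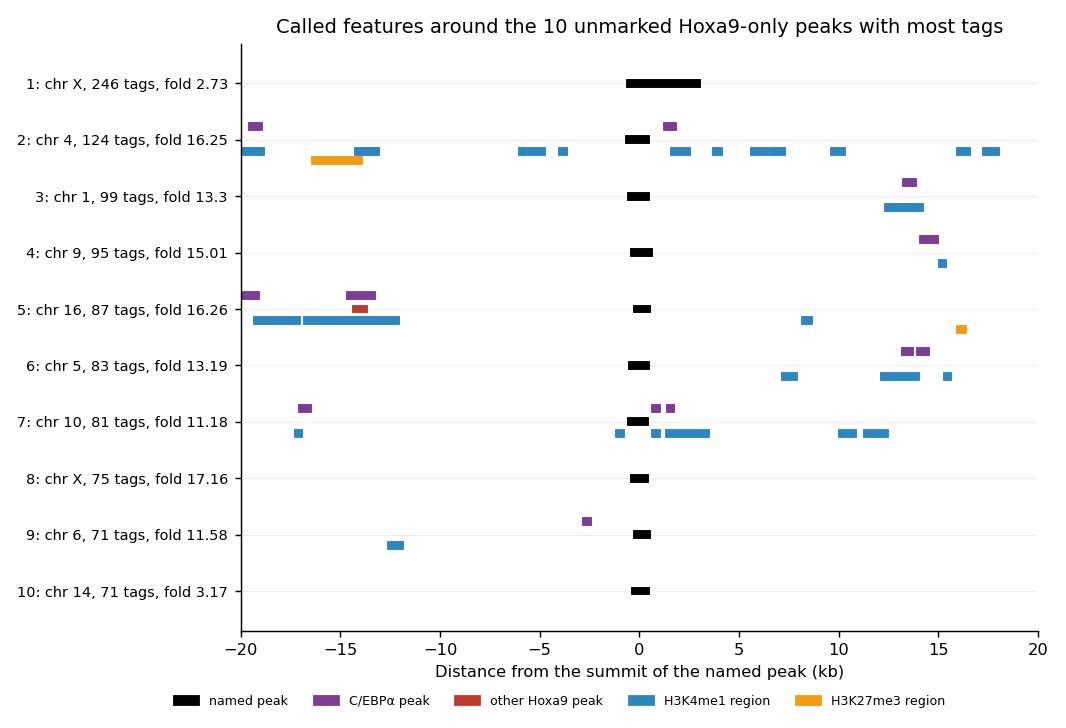
Called features within 20 kb of the 10 unmarked Hoxa9 peaks with most tags, 1 row for each, as distance in kb from the summit of the named peak (x). Black bars are the named peaks and coloured bars the other calls; 7 of the 10 had an H3K4me1 region within 20 kb, and the peaks ranked 1, 8 and 10 had no other call in the window.

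High tag counts did not always go with high enrichment. The unmarked peak with most tags, 246, lay on chromosome X from 92130961 to 92134672. It was the widest of all 6578 Hoxa9 peaks at 3712 bp, had a fold enrichment of only 2.73, the lowest among the unmarked peaks, and a p score of 66.7. A peak on chromosome 14 from 5071770 to 5072685 held 71 tags at a fold enrichment of 3.17 and a score of 51.0, and it lay farthest of all from a C/EBPα summit, at 3526174 bp. Both had 0 C/EBPα, H3K4me1 and other Hoxa9 summits within 50 kb. Of the 50 unmarked peaks with 40 or more tags, 4 had a fold enrichment under 5, which is 8%. It was 2.34% of the 556 such Hoxa9-only peaks in H3K4me1 and 2.27% of the 1847 with C/EBPα. It was 2.44% of all 2454 such Hoxa9 peaks and 0 of the 58 with C/EBPα outside H3K4me1. The 8% rests on 4 peaks only. The other 2 of these 4 lay on chromosome 8 from 72022863 to 72023848, with 44 tags, and on chromosome 5 from 16981001 to 16981823, with 43 tags. What sets the tags and the fold apart at these 4 peaks was not tested.

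The distance from unmarked peaks to H3K4me1 varied widely. It ran from 1 to 4357494 bp with a median of 12803 bp (interval 10962 to 15796) and quartiles at 2609 and 82370 bp. H3K4me1 lay within 100 bp of 45 unmarked peaks and within 1 kb of 153, or 17.3%. It lay within 10 kb of 45.0% and within 100 kb of 78.3%, and 24 peaks had none within 1 Mb. The 243 peaks outside H3K4me1 with C/EBPα were nearer to the mark, at a median of 1352 bp, with 47.3% within 1 kb.

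Unmarked peaks were seldom enclosed by H3K4me1. A region lay within 1 kb on both sides of 32 peaks, 3.62%, and on 1 side only of 121, or 13.7%. Joining H3K4me1 regions that were up to 1 kb apart, a setting chosen after seeing the data, left 873 unmarked peaks, so 10 of the 883 lay in such short gaps.

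Tag counts were slightly higher close to the mark. The median was 20 tags in the 45 peaks less than 100 bp away, 19 in the 108 peaks between 100 bp and 1 kb, and 18 or 18.5 in the next 3 distance classes, up to 1 Mb. A p score of 100 or more was found in 24.4% and 20.4% of peaks in the first 2 distance classes, in 9.84% between 1 and 10 kb, in 10.5% between 10 and 100 kb and in 3.57% between 100 kb and 1 Mb. Beyond 1 Mb it was 2 of 24 peaks, or 8.33%. All 12 peaks with a fold enrichment of 10 or more lay within 100 kb of H3K4me1, 5 of them between 10 and 100 kb. Across the 883 peaks, tags and the distance to H3K4me1 gave a Spearman's rho of -0.17, a weak relation over sites of 1 library.

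At the limit of the rule, tags ran from 18 to 33 just inside and from 20 to 33 just outside. The unmarked peak nearest to H3K4me1 lay on chromosome X from 163584463 to 163584934, with 19 tags and 1 bp and 16 bp to the regions at its sides. Next came peaks on chromosome 3 from 15180473 to 15180921 with 18 tags and on chromosome 4 from 108874123 to 108874851 with 33 tags, each 6 bp away. The 3 Hoxa9-only peaks that just missed the rule shared 2 bp with H3K4me1. They held 33 tags on chromosome 15 from 62009185 to 62009808, 29 tags on chromosome 15 from 69444322 to 69444934 and 20 tags on chromosome 16 from 57122766 to 57123216.

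The 5 unmarked peaks farthest from H3K4me1 were weak. They lay on chromosomes 14, X and 8, at 2534833 to 4357494 bp, and held 17 to 19 tags each. Among all 24 beyond 1 Mb, the highest count was 45 tags, in the 1 peak that reached 40. The farthest was on chromosome 14 from 92243381 to 92243824, with 18 tags and a fold enrichment of 6.43. It was also the Hoxa9 peak farthest from any other Hoxa9 summit, at 4337487 bp, whereas a C/EBPα summit lay 801135 bp away. The next was on chromosome X from 62583897 to 62584274, 4025911 bp from H3K4me1 and 4100611 bp from another Hoxa9 summit, with 17 tags.

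C/EBPα was farther from unmarked peaks than from Hoxa9-only peaks in H3K4me1. These 2 classes are split by overlap with H3K4me1, and distances to H3K4me1 and to C/EBPα were related over unmarked peaks. Part of the contrast may therefore be built in. The nearest C/EBPα summit lay at a median of 29841 bp (26941 to 34616) from unmarked summits, against 8323 bp (7601 to 9109) from Hoxa9-only summits in H3K4me1. It lay within 1 kb of 19 unmarked summits, 2.15%, against 4.68%, and within 10 kb of 25.3% against 54.5%. Within 50 kb it was 60.9% against 89.7%, and within 100 kb 75.5% against 96.5%. Within 50 kb to either side, the median number of C/EBPα summits was 1 for unmarked peaks and 3 for Hoxa9-only peaks in H3K4me1, and 39.1% and 10.3% of them had none.

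The gap between the classes was narrower among strong peaks. In score group 1 the median distance to a C/EBPα summit was 35581 bp for unmarked peaks and 7817 bp for Hoxa9-only peaks in H3K4me1. In group 2 the medians were 32933 and 8041 bp, in group 3 they were 22128 and 8322 bp, and in group 4 they were 14323 and 8793 bp in the same order. In group 5 they were 13543 bp over 13 unmarked peaks and 8745 bp over 256 Hoxa9-only peaks in H3K4me1. The distance thus grew shorter with strength among unmarked peaks and stayed between 7817 and 8793 bp among those in H3K4me1. The classes are split by H3K4me1 here too, so the same limit holds.

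Unmarked peaks farther from H3K4me1 tended to be farther from C/EBPα too. Both lay within 5 kb of 102 unmarked peaks, or 11.6% (9.52 to 13.8), and neither of 557, or 63.1% (59.8 to 66.3). H3K4me1 without C/EBPα lay within 5 kb of 202, or 22.9%, and C/EBPα without H3K4me1 of 22, or 2.49%. The 2 distances had a Spearman's rho of 0.70 over the 883 peaks. Such a relation is a description of positions that share chromosomes and neighbours.

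Unmarked peaks were farther from other Hoxa9 binding than most of the list, which the peaks with C/EBPα outside H3K4me1 shared in part. Their summits lay a median of 114549 bp (103605 to 129342) from the nearest other Hoxa9 summit, against 35548 bp for Hoxa9-only peaks in H3K4me1 and 32584 bp for peaks with C/EBPα. For the 243 peaks with C/EBPα outside H3K4me1 the median was 79721 bp (53779 to 109381), and their upper quartile, 341987 bp, was above the 308616 bp of unmarked peaks. Another Hoxa9 summit lay within 50 kb of 30.2% of unmarked peaks, 56.7% of Hoxa9-only peaks in H3K4me1, 59.5% of peaks with C/EBPα and 42.0% of those with C/EBPα outside H3K4me1. Within 500 kb it was 84.3% of unmarked peaks and 82.3% of peaks with C/EBPα outside H3K4me1. Against Hoxa9-only peaks in H3K4me1, the medians differed in the same direction in every score group. They were 135412 bp for unmarked peaks and 37106 bp for Hoxa9-only peaks in H3K4me1 in group 1, and 83206 and 35256 bp in group 5. The nearest other Hoxa9 peak had C/EBPα in 52.1% of cases and was itself unmarked in 18.9%, beside shares of 56.9% and 13.4% for these classes in the whole list.

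**Figure D4:**
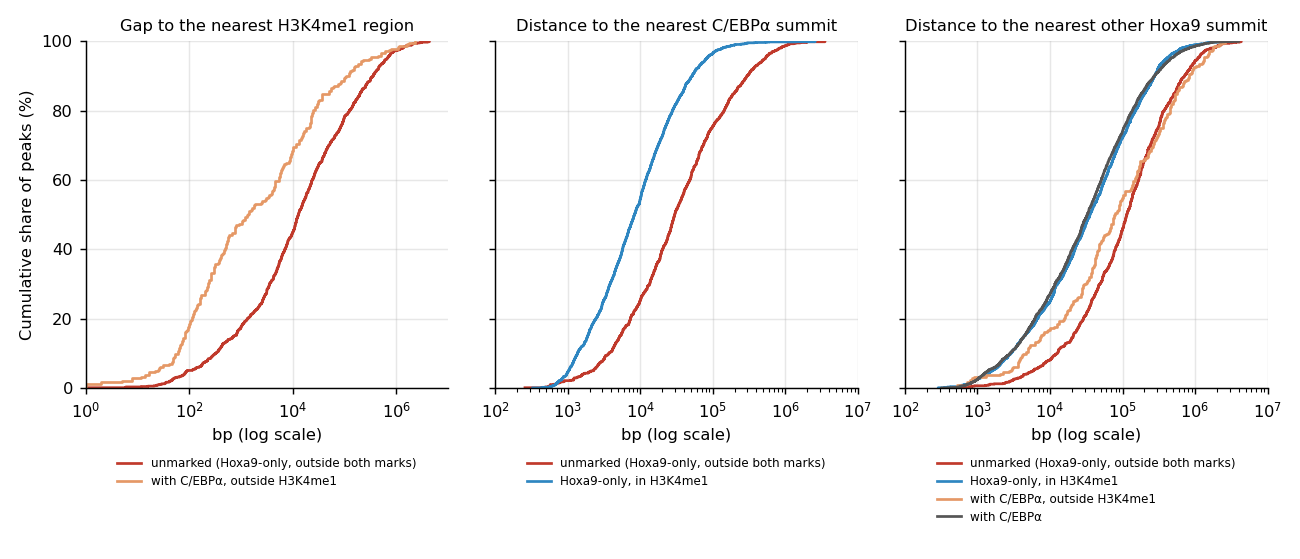
Cumulative share of peaks (y, percent) by the gap to the nearest H3K4me1 region and the distance to the nearest C/EBPα and other Hoxa9 summit (x, bp, log scale), for unmarked peaks and the other classes. The medians of the unmarked peaks are 12803, 29841 and 114549 bp, and their curve lies to the right of the others over most of each panel, except that it meets the curve of peaks with C/EBPα outside H3K4me1 at long distances to other Hoxa9 summits.

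Few unmarked peaks had another unmarked summit within 25 kb, and the unmarked share among close neighbours was near that in the whole list. With unmarked summits up to 25 kb apart joined, and other Hoxa9 summits ignored, 863 of 883 stood alone and 20 formed 10 pairs. Another Hoxa9 summit of any class lay within 25 kb of 156 unmarked peaks, and the nearest one was unmarked in 11.5% of these cases, beside a share of 13.4% of the whole list. The tightest pair lay on chromosome 7 from 48432270 to 48434418, with 19 tags in each peak and summits 1475 bp apart. The next lay on chromosome X from 7886266 to 7890004, with 23 and 21 tags and summits 3142 bp apart, and on chromosome 2 from 7209623 to 7215610, with 19 and 20 tags and summits 5409 bp apart. None of these 3 pairs held a C/EBPα, H3K4me1 or H3K27me3 summit.

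A minority had no call of these kinds in a wide window. Of the unmarked peaks, 147, or 16.6% (14.2 to 19.3), had no H3K4me1 region, C/EBPα summit or other Hoxa9 summit within 100 kb. The same held for 149 of all 6578 Hoxa9 peaks, or 2.27%. Peaks on H3K4me1 or with C/EBPα cannot be among them, so the rule itself fixes nearly all of that overlap.

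The distance to H3K27me3 differed little between unmarked peaks and the larger classes. The nearest H3K27me3 region was a median of 90239 bp (76367 to 103686) away, against 73022 bp for Hoxa9-only peaks in H3K4me1 and 83556 bp for peaks with C/EBPα. It was 125896 bp (92869 to 161068) for the peaks with C/EBPα outside H3K4me1. By score group, unmarked peaks and Hoxa9-only peaks in H3K4me1 differed in both directions. In that order the medians were 101984 and 67173 bp in group 1, 80534 and 75047 bp in group 2, and 85655 and 73874 bp in group 3. They were 63478 and 82159 bp in group 4, and 37248 bp over 13 unmarked peaks and 70484 bp in group 5. The rule forbids overlap with H3K27me3 in unmarked peaks, whereas the other classes may overlap it. No H3K27me3 summit lay within 50 kb of 63.8% of unmarked peaks, against 61.5% and 64.8%. A further 29 Hoxa9-only peaks outside H3K4me1 overlapped H3K27me3 and were therefore left out. The surroundings in H3K4me1 differed more: within 50 kb to either side it covered a median of 2.41% of the bases around unmarked peaks, 15.7% around Hoxa9-only peaks in H3K4me1 and 16.8% around peaks with C/EBPα. Around the 243 peaks with C/EBPα outside H3K4me1 it covered a median of 2.90%, near the value of unmarked peaks. The rule itself removes the mark from the peak, so part of that difference is built in.

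Unmarked peaks were about as dense on chromosome X as on the autosomes, while Hoxa9-only peaks in H3K4me1 and Hoxa9 peaks with C/EBPα were sparser there. Their density ran from 0.262 to 0.489 per Mb over the 19 autosomes, with a median of 0.322, and was 0.326 per Mb on X. Hoxa9-only peaks in H3K4me1 were found at 0.104 per Mb on X against an autosomal median of 0.807, and peaks with C/EBPα at 0.363 against 1.49. X thus had 1.01 times the autosomal median of unmarked peaks, 0.13 times that of Hoxa9-only peaks in H3K4me1 and 0.243 times that of peaks with C/EBPα. The 243 peaks with C/EBPα outside H3K4me1 were not sparse on X either: 27 of them, 11.1%, lay there, at 0.166 per Mb against an autosomal median of 0.0926. H3K4me1 regions themselves were rarer there, at 7.28 per Mb against a median of 40.5. Unmarked peaks and Hoxa9-only peaks in H3K4me1 are defined by overlap with that mark, so part of their contrast on X is built in. Unmarked peaks were 53 of the 131 Hoxa9 peaks on X, 40.5% (32.0 to 49.4). The autosomes ranged from 8.74% on chromosome 19 to 17.7% on chromosome 5. What sets X apart was not tested.

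Unmarked peaks on X resembled those on the autosomes in strength but not in setting. They had a median of 20 tags against 18 on the autosomes, a median width of 455 against 446 bp and the same median fold enrichment of 5.15. The nearest H3K4me1 region was a median of 65904 bp away on X and 12260 bp on the autosomes, and the nearest other Hoxa9 summit 361408 and 111254 bp. Of the X peaks, 20 of 53 had nothing of the 3 kinds within 100 kb, 37.7% (24.8 to 52.1), against 127 of 830 on the autosomes, 15.3% (12.9 to 17.9). H3K27me3 was nearer on X, at a median of 28571 bp against 99138 bp. These distances on X were taken for unmarked peaks only, so they are not shown to be particular to them. All Hoxa9 peaks together were sparser on X too, at 0.805 per Mb against 2.12 to 3.55 on the autosomes. Over the 20 chromosomes, the density of each class was set beside that of H3K4me1 regions. Spearman's rho was 0.23 for unmarked peaks, 0.73 for Hoxa9-only peaks in H3K4me1 and 0.60 for peaks with C/EBPα. It was -0.20 for peaks with C/EBPα outside H3K4me1. Apart from all peaks with C/EBPα, these classes are defined by overlap with H3K4me1, so part of the contrast is built in. The values describe these lists.

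**Figure D5:**
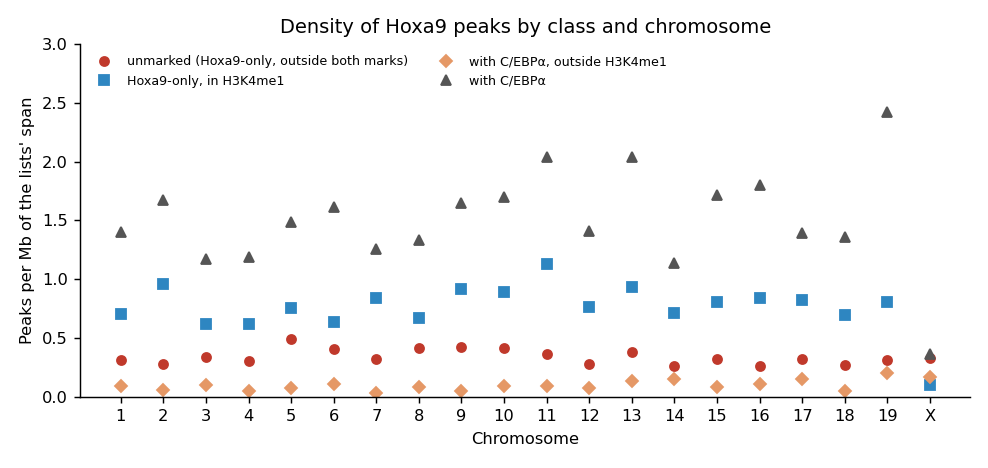
Hoxa9 peaks per Mb of the span of the lists (y) on each chromosome (x), by class, with 1 point for each class and chromosome. Unmarked peaks stay between 0.262 and 0.489 per Mb on every chromosome, X included. Hoxa9-only peaks in H3K4me1 and all peaks with C/EBPα are lowest on X, whereas those with C/EBPα outside H3K4me1 reach 0.166 per Mb there.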

How the data were processed

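Peak lists from 4 of the 5 libraries were used, and the input library was not analysed here. The submitters' processing notes name the tools BWA 0.6.2, MACS 1.4 and CASAVA 1.8.2, and build mm9. Neither settings nor control of the caller were stated there. Deposited lists, per the file headers, give tag counts per peak (not normalized), a p score, a fold enrichment (a linear ratio) and a false discovery rate in percent, all made by the authors' caller. The depth of the libraries is unknown, since no totals were at hand. The lists start at a score of 50.01 or 50.02 and at 17 tags for Hoxa9.

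Peaks were compared by shared bases (1 bp or more) and by distances between edges or summits, with numpy 2.4.6, pandas 2.3.3 and scipy 1.17.1 under Python 3.11.15. Stretches joined summits up to 25 kb apart. Shares carry Clopper-Pearson intervals and medians order-statistic intervals, over peaks that are not replicates. Densities use the span that the 4 lists cover on a chromosome. The overlap code was checked on simulated intervals. Peaks named were the 10 with most tags, the 5 with the highest fold enrichment, tags per bp or distance to H3K4me1 or C/EBPα, 3 on either side of the overlap limit and the 3 tightest stretches with most unmarked peaks, while the 4 with many tags and low fold were named after their values were seen. The peaks and rules were chosen with earlier results of these data known. No mm9 genome or annotation was at hand, so genes, motifs and sequences were not used here.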

Additional observations from a re-analysis of the deposited data

How the results depend on the processing

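Of 63 alternative values, 9 settings for each of 7 results, 40 stayed inside the 95% interval of the reported value and 23 moved outside it. That interval was 5.15 to 5.15 for fold enrichment and 444 to 448 bp for width. Very small changes therefore count as moved for these results, such as a fold enrichment of 5.19 (1.01 times) or a width of 455 bp (1.02 times). Judged by the summit base alone, 18.3% of Hoxa9 peaks were unmarked, with a median width of 455 bp, a fold enrichment of 5.19 and medians of 4692 bp to H3K4me1, 22528 bp to a C/EBPα summit and 94557 bp to another Hoxa9 summit. With nothing allowed within 500 bp, the share was 11.3%, and the medians were 20119 bp to H3K4me1 and 38235 bp to C/EBPα. With the other lists cut to their upper 50% by score, the share was 20.4%, and the medians were 20 tags, 459 bp in width, a fold enrichment of 5.19, 19882 bp to H3K4me1, 51738 bp to C/EBPα and 88977 bp to another Hoxa9 summit. With the Hoxa9 list cut to its upper 50%, only 89 unmarked peaks were left, 2.71%, with medians of 40 tags, 744 bp in width, a fold enrichment of 7.29, 5977 bp to H3K4me1, 14512 bp to C/EBPα and 75633 bp to another Hoxa9 summit. All 7 values moved in that setting, and it keeps fewer and stronger peaks by construction. Under 100 bp of sharing allowed, H3K27me3 ignored, chromosome X left out, the densest 1% of peaks left out (which removed no unmarked peak) and H3K4me1 regions joined, every value stayed inside its interval.

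The numbers and distances rest on what was called in 1 library each. Of the 883 unmarked peaks, 337 sit at the list's lower limit of 17 tags. No paired analysis was possible because each group held 1 library.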

Other observations

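The H3K4me1 regions nearest to unmarked Hoxa9 peaks were narrower and lower in score at the median than all such regions. The 848 H3K4me1 regions nearest to an unmarked peak were 613 bp wide at the median, against 768 bp over all 100189 regions. Their median p score was 136, against 190. Their median fold enrichment was 4.62, against 4.84 over all regions. The 839 nearest C/EBPα peaks differed less from their list. Their median width was 610 against 639 bp, their median p score 172 against 186 and their median fold enrichment 7.70 against 7.74. These values were not tested.

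Among the 156 unmarked peaks with another Hoxa9 summit within 25 kb, the neighbour had C/EBPα in 96 cases, lay in H3K4me1 without C/EBPα in 42 and was unmarked in 18. The share with C/EBPα, 61.5%, stood beside 56.9% of such peaks in the whole Hoxa9 list.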
